A study of Mus musculus with 8 samples.

Results

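Insulin and insulin-like growth factor 1 (IGF1) signal through a short chain of proteins to phosphoinositide 3-kinase (PI3K) and the kinase AKT, and 9 genes of that chain were followed here at the transcript level in mouse heart. They are Igf1, Igf1r, Insr, Irs1, Irs2, Pik3r1, Pik3ca, Akt1 and Akt2, chosen by symbol as a pathway, out of 33105 genes in the deposited count table. All hearts were from the strain C57BL/6J, and messenger RNA was sequenced in 4 libraries of the treatment MR and 4 of the treatment Sham, the usual name for a mock operation. MR stands for mitral regurgitation, in which a leaking mitral valve returns blood to the atrium and loads the ventricle with volume, made here by a minimally invasive operation. No transgene or drug is named for either group, and the labels leave out age, sex, the time after surgery and the part of the heart. The stated aim was to explore signalling in the hypertrophy that this volume load brings.

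IGF1 binds its receptor tyrosine kinase, and insulin binds the closely related insulin receptor. Both receptors phosphorylate the docking proteins IRS1 and IRS2, which recruit PI3K, a pair of a regulatory and a catalytic subunit. PI3K makes a membrane lipid that brings AKT to the membrane to be activated. In heart muscle this route is known for promoting physiological growth, glucose uptake and survival, and AKT holds the FoxO transcription factors out of the nucleus. Several of these steps run on phosphorylation, which transcript counts do not measure.

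Total counts ran from 42291511 to 58658094 per library, and all 9 genes passed the filter on low counts. Levels are given as CPM, the depth-scaled rate of counts, after scaling between libraries by TMM, and a gene was called changed at an adjusted p under 0.05 in edgeR's quasi-likelihood test over the 16603 genes tested. By that rule 0 of the 9 genes changed, against 76 genes in all (0.458%), of which 0.241% were higher in MR and 0.217% lower. At an unadjusted p under 0.05 there were 3 of the 9, against 15.1% of genes tested, and the groups did not overlap in 1 (Igf1, MR above), against 8.1% of all genes in either direction, 4.19% with MR above and 3.91% with MR below. Igf1 and Pik3r1 were the only members of the 9 called under any alternative run. Both were called in DESeq2 (against 3.76% of all genes), with no filter (3.06%) and without Sham replicate 3 (5.28%). Both were also called in limma-voom with quality weights per library (2.75%), named limma-voom below. Igf1 alone was called with library totals in place of TMM (0.422%). None of the 9 was called with RLE factors (0.47%), with the filter at 1 CPM (0.389%), without robust moderation (0.56%) or with the gene length trend removed (1.37%). None was called without Sham replicate 1, 2 or 4 (0.551%, 0.0178% and 0.0356%) or without MR replicate 1, 2, 3 or 4 (0.095%, 0.0595%, 0.0833% and 0.244%).

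The median log2 fold change of the 9 was 0.04 and that of all genes 0.0019, and 6 of the 9 were positive. The median absolute log2 fold change was 0.20 among the 9 and 0.12 over all genes. Sham replicate 1 stood apart in its long transcripts: the median deviation of genes with at least 5.39 kilobases of exon minus that of genes with at most 2.795 was −0.25 on the log2 scale there and −0.080 to 0.078 in the other 7 libraries. The number of genes called depended on single libraries, from 3 without Sham replicate 2 to 887 without Sham replicate 3. The heart muscle gene Myh6 was at 17512 to 25374 CPM in every library, while the fat cell markers Adipoq, Plin1, Cidec, Lep and Retn were each at 0 in at least 1 library and together reached at most 2.01 CPM. The summed neutrophil markers did not overlap between the groups, at 8.10 to 57.2 CPM in Sham and 3.03 to 5.87 in MR. The 4 atrial markers summed to 45.6 to 70.3 and 93.3 to 212 CPM, which was mostly Nppa (41.9 to 65.7 and 81.4 to 204.6 CPM), a gene that load also induces in ventricle. The other 3, Myl7, Myl4 and Sln, had log2 fold changes of 0.69, 0.79 and 0.67 (edgeR adjusted p 0.701, 0.556 and 0.72). Their groups overlapped, with Sham replicate 1 the highest Sham library in each (4.90, 7.47 and 1.02 CPM). In either list, neutrophil or atrial, 0 genes were called. The part of these lists in the values of the 9 genes was not tested.

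**Figure D1:**
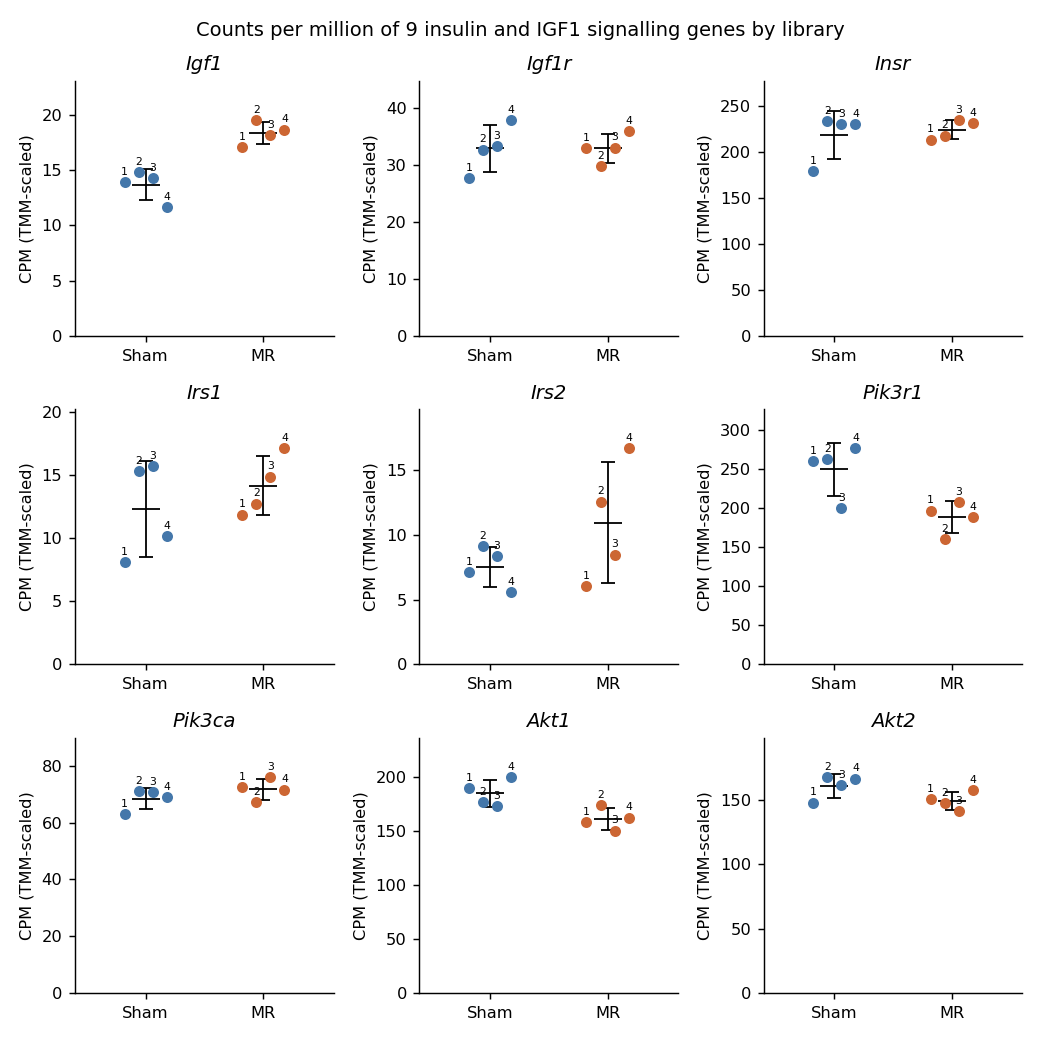
Each panel shows 1 gene, with CPM scaled by TMM on the vertical axis from 0, a point per library marked with its replicate number, and the mean and SD of each group (n = 4) as bars. For Igf1 the 4 MR points lie at 17.1 to 19.6 CPM, above all Sham points at 11.6 to 14.8.

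Divided by exon length, so that genes can be compared, Akt1 was the highest of the 9 and both docking proteins had the lowest means. Akt1 was at 45.1 ± 3.04 CPM per kilobase of exon in Sham and 39.3 ± 2.42 in MR (SD, n = 4), above the next gene in all 8 libraries. Pik3r1 (24.8 ± 3.38 in Sham, 18.7 ± 2.01 in MR) and Akt2 (22.6 ± 1.28 and 20.9 ± 0.942) shared the next place: Pik3r1 was above Akt2 in 3 Sham libraries and 1 MR library. Insr followed at 15.9 ± 1.91 and 16.3 ± 0.744 CPM per kilobase, and Pik3ca at 7.54 ± 0.408 and 7.91 ± 0.407, each below the gene before it in all 8 libraries. Igf1r, Igf1, Irs2 and Irs1 had means over the 8 libraries of 1.96, 1.62, 1.46 and 1.45 CPM per kilobase, and their ranges overlapped. Within that group Igf1r exceeded Igf1 in 7 libraries, Igf1 exceeded Irs2 in 6 and Irs2 exceeded Irs1 in 3. These levels assume that all annotated exons are used, so they are lower bounds for a gene whose long exons the heart leaves out. The place of Irs1 is also uncertain, because Gm9747 on the opposite strand covers 30.9% of its exon bases and the strand setting is not stated.

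**Figure D2:**
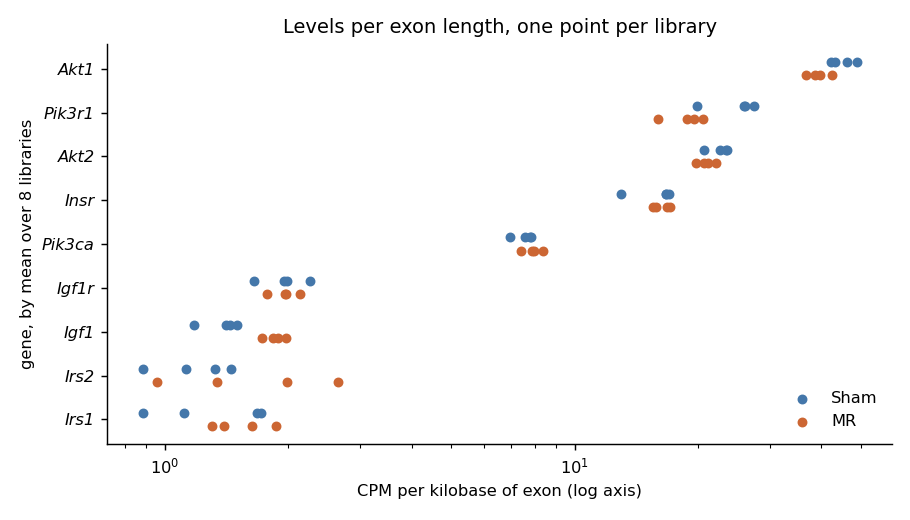
Points are libraries, placed by CPM per kilobase of exon on a log axis, with genes ordered by their mean over all 8 libraries. Akt1 lies alone at 36.7 to 48.8, and Igf1r, Igf1, Irs2 and Irs1 overlap between 0.883 and 2.64.

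Igf1, the secreted growth factor at the head of the chain, had the lowest p of the 9 and missed the threshold by a small margin. It is a protein-coding gene (ENSMUSG00000020053) on chromosome 10, 87858265 to 87937042 in GRCm38. Sham replicates 1 to 4 were at 13.9, 14.8, 14.3 and 11.6 CPM, and MR replicates 1 to 4 at 17.1, 19.6, 18.2 and 18.7 CPM. All MR libraries were above all Sham libraries, the only such case in either direction among the 9. The means were 13.7 ± 1.40 and 18.4 ± 1.02 CPM (SD, n = 4), with a log2 fold change of 0.43 (SE 0.09, 95% interval 0.24 to 0.62, edgeR adjusted p = 0.0513), which is 1.34-fold. By p it ranked 86th among all genes. The fold change stayed between 0.36 and 0.47 with each library left out in turn, and the call was made without Sham replicate 3 (adjusted p = 0.0179), in DESeq2 (0.00243), in limma-voom (0.033), with library totals only (0.038) and with no filter (0.000834).

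In the heart, Igf1 is known to be made by macrophages and fibroblasts as well as by muscle cells, so markers of these cells are set beside it. The 8 fibroblast markers summed to 1716 to 1798 CPM in Sham and 1776 to 1967 in MR, with 1 of 8 (Col1a1) higher and 0 lower. The 8 macrophage markers summed to 236 to 253 CPM in Sham and 212 to 238 in MR, with 0 of 8 changed, and none of the 16 was at 0 in any library. Both sums overlapped between the groups, but not each marker did. The fibroblast sum was mostly Gsn and Dcn, while Postn, a matrix gene of activated fibroblasts, was at 38.2 to 54.9 CPM in Sham and 80.1 to 146 in MR (2.29-fold, edgeR adjusted p = 0.0678). Col1a1 was at 43.4 CPM on average in Sham and 75.8 in MR (1.75-fold, adjusted p = 0.0483). Of the macrophage markers, Mrc1 and Cd163 lay wholly below Sham (0.818-fold and 0.779-fold, adjusted p 0.083 and 0.0697) and Fcgr1 wholly above (1.31-fold, adjusted p = 0.208). The part of either cell type in the Igf1 values was not tested. In whole tissue, fewer or more cells of a type and less or more RNA per cell cannot be told apart.

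The receptors showed almost no difference in their means. Igf1r (ENSMUSG00000005533, chromosome 7, 67952827 to 68233668), the IGF1 receptor, was at 27.8, 32.7, 33.4 and 37.9 CPM in Sham replicates 1 to 4 and at 33.0, 29.8, 33.1 and 35.9 in MR replicates 1 to 4. The groups overlapped almost wholly, at 33.0 ± 4.17 and 33.0 ± 2.50 CPM (SD, n = 4), and the interval of the fold change ran from 0.873 to 1.15 (edgeR adjusted p = 0.999). Insr (ENSMUSG00000005534, chromosome 8, 3122061 to 3279617), the insulin receptor, was at 179, 234, 230.0 and 230.0 CPM in Sham and at 213, 218, 235 and 231 in MR. Sham replicate 1 was the low library, and the other 7 lay within 213 to 235 CPM. The means were 218 ± 26.3 and 224 ± 10.2 CPM (SD, n = 4), and the interval of the fold change was 0.902 to 1.17 (edgeR adjusted p = 0.876). Per kilobase of exon Igf1r held 0.115 to 0.135 of the Insr level in Sham and 0.112 to 0.127 in MR, a ratio that overlapped between the groups (exact permutation p = 0.6, adjusted over 4 ratios 0.6). Exons of these genes add up to 16.8 and 13.7 kilobases, in the length class that was low in Sham replicate 1. Without that library the log2 fold changes were −0.080 for Igf1r and −0.051 for Insr, and with the gene length trend removed they were −0.063 and −0.0072 (edgeR adjusted p 0.697 and 0.974).

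The docking proteins were the most variable of the 9. Irs1 (ENSMUSG00000055980, chromosome 1, 82233101 to 82291416) was at 8.07, 15.3, 15.7 and 10.2 CPM in Sham replicates 1 to 4 and at 11.9, 12.7, 14.9 and 17.1 in MR. Its Sham libraries formed a low and a high pair with all MR values but the highest between them, and the log2 fold change was 0.20 (95% interval −0.26 to 0.67, edgeR adjusted p = 0.706). Leaving out a low Sham library (1 or 4) gave 0.039 and 0.12, and leaving out a high one (2 or 3) gave 0.32 and 0.34. The value was 0.095 without MR replicate 4 and 0.093 in limma-voom. Gm9747, annotated on the opposite strand, covers 30.9% of the Irs1 exon bases, and without a stated strand setting the Irs1 value is uncertain. Irs2 (ENSMUSG00000038894, chromosome 8, 10984681 to 11008458) was at 7.12, 9.14, 8.35 and 5.59 CPM in Sham and at 6.05, 12.6, 8.48 and 16.7 in MR. MR replicates 2 and 4 were above every Sham library, MR replicate 1 was near the lowest of them, and the coefficient of variation in MR was 42.8%. The log2 fold change was 0.54 with an interval of −0.17 to 1.25 (edgeR adjusted p = 0.462), and it was 0.26 without MR replicate 4, 0.74 without MR replicate 1 and 0.31 in limma-voom. The ratio of Irs1 to Irs2 per kilobase was 0.784 to 1.30 in Sham and 0.70 to 1.36 in MR (exact permutation p = 0.486, adjusted 0.6).

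FoxO factors are known to activate Irs2, and a FoxO gene, Foxo3, was called lower in MR, a call lost in 8 of the 16 alternatives. The promoters were therefore searched for letters that FoxO proteins are known to bind. The search was chosen after the Foxo3 call was seen. The log2 fold change was −0.36 for Foxo3 and, with neither called, 0.54 for Irs2 and 0.20 for Irs1. A link between them was not tested. RefSeq windows of the 250 bases before the transcript start (GRCm38.p6) were available for 8 of the 9 genes, in 13 windows, with Insr not among them. TGTTTTG, a core of insulin response sequences, occurred on either strand in 2 of the 13 windows, those of Irs1 and Irs2, and in 5.56% of all 32851 windows. GTAAACA, the core of the FoxO consensus, occurred in 1 of the 13, an Akt1 window, and in 3.17% of all. No match overlapped another. The 3 windows are shown on the strand of the gene because they are the ones among the 13 with a match, with the matches in capitals, and in Akt1 the match is to the reverse complement TGTTTAC. Their positions are chr1:82291440-82291689, chr8:11008930-11009179 and chr12:112674885-112675134, all on the minus strand.
Irs1: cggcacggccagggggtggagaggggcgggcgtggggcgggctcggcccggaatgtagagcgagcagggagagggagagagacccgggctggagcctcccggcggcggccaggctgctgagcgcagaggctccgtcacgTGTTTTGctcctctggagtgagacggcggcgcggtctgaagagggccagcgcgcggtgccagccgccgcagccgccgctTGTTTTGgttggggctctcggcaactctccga
Irs2: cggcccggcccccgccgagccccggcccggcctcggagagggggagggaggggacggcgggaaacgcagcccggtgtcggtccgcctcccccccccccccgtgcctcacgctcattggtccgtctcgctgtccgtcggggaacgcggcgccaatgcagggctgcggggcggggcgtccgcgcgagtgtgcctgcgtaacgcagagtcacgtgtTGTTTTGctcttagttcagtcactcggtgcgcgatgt
Akt1: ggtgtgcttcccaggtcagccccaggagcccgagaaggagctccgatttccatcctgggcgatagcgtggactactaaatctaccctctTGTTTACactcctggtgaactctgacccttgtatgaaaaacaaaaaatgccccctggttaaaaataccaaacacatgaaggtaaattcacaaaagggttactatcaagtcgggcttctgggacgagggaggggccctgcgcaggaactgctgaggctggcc
In Irs1 the matches begin 111 and 32 bases before the start, in Irs2 37 and in Akt1 161. A match describes these letters only and is not evidence of binding.

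Of the PI3K subunits, the regulatory one was lower in MR by its mean and the catalytic one was close to level. Pik3r1 (ENSMUSG00000041417, chromosome 13, 101680563 to 101768217) encodes the regulatory subunit p85 alpha and its shorter forms, which gene counts do not separate. It was at 261, 263, 200.4 and 277 CPM in Sham replicates 1 to 4 and at 197, 161, 208 and 189 in MR. MR replicate 3 exceeded Sham replicate 3, and the other Sham libraries were above every MR library. The means were 250.3 ± 34.1 and 189 ± 20.3 CPM (SD, n = 4), with a log2 fold change of −0.41 (SE 0.11, 95% interval −0.63 to −0.18, edgeR adjusted p = 0.0879). Without Sham replicate 3 the log2 fold change was −0.50 and the call was made (adjusted p = 0.0056), as it was in DESeq2 (0.011), in limma-voom (0.0423) and with no filter (9.9e-05). The no-filter value lay below the unadjusted p of the main edgeR run (0.00174), so it is not on a par with the others. Pik3ca (ENSMUSG00000027665, chromosome 3, 32397671 to 32468486), the catalytic subunit p110 alpha, was at 63.1, 71.2, 70.7 and 68.9 CPM in Sham and at 72.5, 67.2, 76.2 and 71.6 in MR. Those groups overlapped, and the fold change had an interval of 0.95 to 1.16 (edgeR adjusted p = 0.677). Its log2 fold change was 0.07, with 0.026 without Sham replicate 1, 0.041 without MR replicate 3, 0.039 with the length trend removed and 0.11 with library totals only.

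Measured within each library, where scaling between libraries plays no part, the ratio of Pik3r1 to Pik3ca per kilobase separated the groups. In replicate order the Sham ratios were 3.73, 3.33, 2.56 and 3.62, and the MR ratios 2.45, 2.16, 2.46 and 2.38. Every MR ratio was below every Sham ratio, with Sham replicate 3 nearest to MR. The difference of the log2 ratios was −0.47, and the exact two-sided permutation p was 0.0286, the smallest that 70 arrangements allow, or 0.114 adjusted over the 4 ratios, which does not pass. It ran from −0.59 to −0.41 with each library left out.

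**Figure D3:**
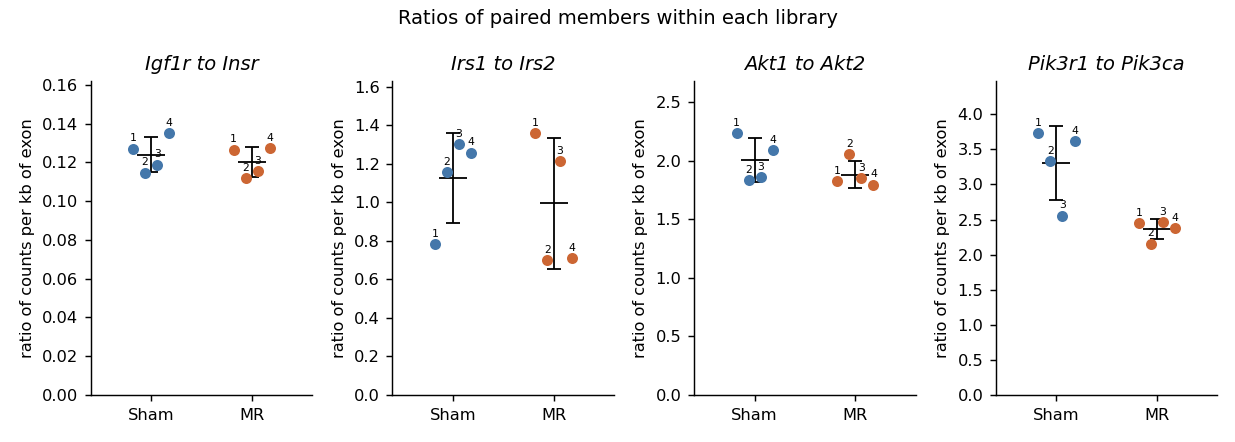
Each panel gives the ratio of 2 genes' counts per kilobase of exon on an axis from 0, with a numbered point per library and the mean and SD per group (n = 4). Only in the panel of Pik3r1 to Pik3ca do the groups lie apart, at 2.56 to 3.73 in Sham and 2.16 to 2.46 in MR.

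Both AKT genes were somewhat lower in MR by their means without passing the test. Akt1 (ENSMUSG00000001729, chromosome 12, 112653821 to 112674884), the kinase form tied to growth, was at 189.8, 177, 173 and 200.2 CPM in Sham replicates 1 to 4 and at 158, 174, 150.4 and 162 in MR. MR replicate 2 exceeded Sham replicate 3 by a little, and the groups were otherwise apart. The means were 185 ± 12.4 and 161 ± 9.93 CPM (SD, n = 4), with a log2 fold change of −0.20 (SE 0.07, 95% interval −0.36 to −0.04, edgeR adjusted p = 0.219). Akt2 (ENSMUSG00000004056, chromosome 7, 27591552 to 27640826), the form best known for insulin-driven glucose uptake, was at 148, 168, 162 and 167 CPM in Sham and at 151, 148, 141 and 158 in MR. Those groups overlapped only through Sham replicate 1, with a log2 fold change of −0.11 (95% interval −0.26 to 0.04, edgeR adjusted p = 0.491). It was −0.065 with library totals only, −0.13 with the gene length trend removed and −0.15 without Sham replicate 1, and Akt2 was called in none of these. Exons of Akt2 add up to 7.13 kilobases, in the length class that was low in that library. Of the 50-base stretches in Akt2 transcripts 9.76% also occur in other genes, mostly the pseudogene Akt2-ps. The counts given to Akt2-ps came to 4.01 to 5.03% of those of Akt2. How reads from shared stretches were counted is not known, so Akt2 is uncertain and these percentages do not bound the error. The ratio of Akt1 to Akt2 per kilobase was 1.83 to 2.23 in Sham and 1.79 to 2.05 in MR (exact permutation p = 0.2, adjusted 0.4). The 8 heart muscle markers summed to 51048 to 59335 CPM in Sham and 47049 to 53417 in MR with 0 of 8 changed. Of these Myh6 and Myl2 lay wholly below Sham (0.822-fold and 0.812-fold, edgeR adjusted p 0.163 and 0.129). The others overlapped: Tnnt2, Tnni3, Pln and Ryr2 were at 0.779-fold, 0.794-fold, 0.887-fold and 0.961-fold, while Actc1 and Ttn were higher, at 1.13-fold each. The part of heart muscle markers in the Pik3r1 and Akt1 values was not tested.

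**Figure D4:**
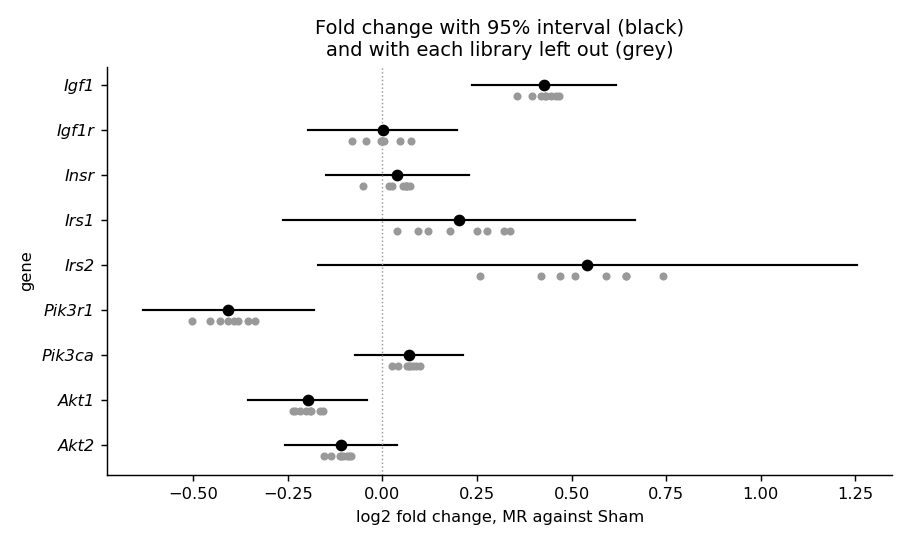
Black points and lines give each gene's log2 fold change of MR against Sham with its 95% interval, and grey points the value with each of the 8 libraries left out. The intervals of Igf1, Pik3r1 and Akt1 exclude 0 before adjustment, and those of Irs1 and Irs2 are the widest.

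Around the 9 genes, 59 others of the pathway were listed by role, and 55 of them were tested. In all, 0 were higher, 1 was lower (Foxo3) and 54 did not pass, against 0.458% of all genes, with a median log2 fold change of −0.0033 and 27 positive values. The median absolute log2 fold change was 0.095, and that of all genes 0.12. Groups did not overlap in 5 of the 55, against 8.1% of all genes, with MR above in 3 and below in 2.

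Among ligands and the IGF-binding proteins, which hold IGF1 in tissue and blood, 0 of 9 tested passed, with a median log2 fold change of 0.20. Igfbp5, a binding protein kept in the matrix, was at 84.1 to 106 CPM in Sham and 114 to 141 in MR, so that its groups did not overlap (log2 fold change 0.41, edgeR adjusted p = 0.065). Igfbp7, which binds IGF1 weakly and is made in vessels, was at 0.47 and Igfbp6, which prefers IGF2, at 0.35 (adjusted p 0.135 and 0.244). Igfals, which stabilises IGF complexes in blood, was at 4.06 to 5.40 CPM in Sham and 2.51 to 4.13 in MR (−0.64, adjusted p = 0.0855), overlapping through MR replicate 4. Igfbp5 and Igfbp7 passed without Sham replicate 3 (adjusted p 0.0163 and 0.00855), and Igfals without MR replicate 4 (0.0458). All 3 were also called in DESeq2 (0.00408, 0.0233 and 0.0147), in limma-voom (0.0436, 0.0396 and 0.0304) and with no filter (highest 0.00179), and Igfbp5 with the length trend removed (0.0342). With no filter the adjusted p of Igfbp5 and Igfbp7 (5.8e-05 and 2.1e-06) lay below their unadjusted p in the main edgeR run (0.00051 and 0.0056). The no-filter calls are therefore not on a par with the others.

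Of the other receptors and adaptors 0 of 9 tested passed, with a median of −0.01. The docking protein gene Gab1 was at −0.20, Irs3, at under 0.5 CPM, at −0.72, the receptor inhibitor Grb10 at 0.10 and the adaptor Grb2 at −0.10 (edgeR adjusted p 0.291, 0.428, 0.51 and 0.556). The other PI3K subunits and their brakes also had 0 of 11 past the threshold. The genes of the other regulatory subunits, Pik3r3 and Pik3r2, were at 0.16 and −0.08 on the log2 scale (edgeR adjusted p 0.35 and 0.625), with groups that did not overlap in either. Pik3r3 shares 24.3% of its exon bases with Gm49337 and is uncertain. The lipid phosphatase gene Inpp5d of blood cells was at 0.13 (adjusted p = 0.584).

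Among AKT and mTOR kinases 0 of 12 passed, and the median was 0.0029. Sgk1, a kinase related to AKT that hormones induce, was at 55.0 to 58.7 CPM in Sham and 36.5 to 58.7 in MR (−0.31, edgeR adjusted p = 0.241), with MR replicate 4 at the Sham level. Rictor, a core part of the complex that phosphorylates AKT, was at 0.14, and the AKT phosphatases Phlpp2 and Phlpp1 at 0.11 and −0.04 (adjusted p 0.667, 0.723 and 0.838).

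Outputs of AKT held the only changed gene of the 55. Foxo3 (ENSMUSG00000048756, chromosome 10, 42181841 to 42276755), a transcription factor of atrophy and stress genes that AKT inhibits, was at 123, 131, 134 and 143 CPM in Sham replicates 1 to 4 and at 99.0, 95.9, 112 and 106 in MR. All MR libraries were below all Sham libraries. It fell 1.29-fold, with a log2 fold change of −0.36 (SE 0.07, edgeR adjusted p = 0.0483). The call was lost without Sham replicates 2 and 4 and without each MR library (highest adjusted p 0.168), with library totals only (0.075) and with the filter at 1 CPM (0.0527), while the fold change stayed between −0.41 and −0.33 with each library left out. Of the other 13 outputs none passed, and 8 were negative. Ddit4, a stress-induced inhibitor of mTOR, was at −0.27, Tbc1d4, which gates the glucose transporter of muscle, at −0.25, and Eif4ebp1, a repressor of translation, at −0.24 (adjusted p 0.214, 0.242 and 0.189).

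**Figure D5:**
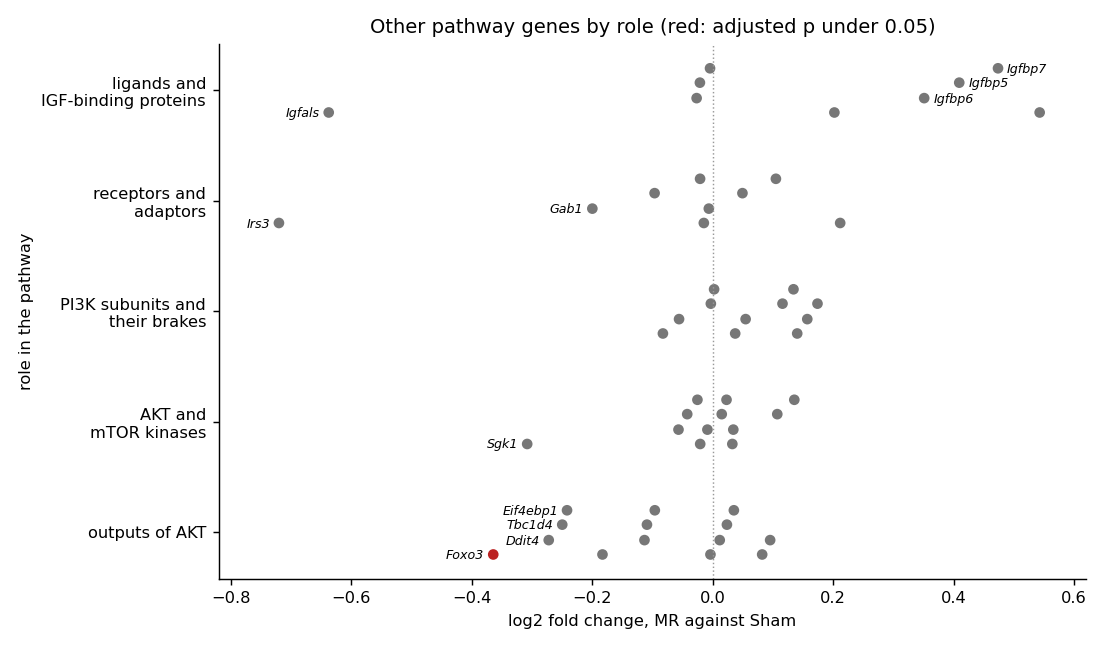
Each point is 1 of the 55 tested pathway genes outside the 9, placed by its log2 fold change of MR against Sham within its role (vertical offsets only separate points), with genes named by the stated rule and past 0.19 in size labelled. Foxo3 at −0.36 is the only one past the threshold.

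Genes with the most similar pattern over the 8 libraries were found by Pearson's r of log2 CPM among 13327 genes, as a description with no test. The groups and the quality of the libraries enter all of these values. Closest to Igf1 were Tgfb3 (r = 0.99, Spearman's rho 0.98), Nudt18 (0.98 and 0.98) and Shank1 (0.97 and 0.90), and closest to Pik3r1 were Syde2 (0.99 and 0.90), Pafah1b1 (0.98 and 0.88) and Klhl13 (0.97 and 0.98). Akt1 was nearest to Hspbp1, Eno1 and Gart, and Akt2 to Sec31b, Gm49405 and Cp. Those of the receptors were St3gal1, Zfat and Slc16a8 for Igf1r and Wdfy2, Hivep1 and Ttc23 for Insr. Irs1 was nearest to Dcbld2, Lpin1 and Zfp964, Irs2 to Aars, Enc1 and Alpl, and Pik3ca to Atp2b1, Tulp4 and Usp34. In none of these 9 sets did another of the 9 genes appear, which says little, because each set holds only 3 of the 13327 genes.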

How the data were processed

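The authors deposited a table of whole-number read counts per Ensembl gene, unnormalised, for 8 libraries. Per the labels' protocols, RNA came from powdered frozen heart with TRIzol and an ABclonal mRNA kit. HISAT2 2.0.5 and mm10 are named in the submitters' processing notes. The counter, the annotation release and the handling of strand were not given in the sources used here.

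Groups came from the treatment label and columns from titles. The title numbers form a separate block in each group, so handling that follows them and MR cannot be told apart. Replicate numbers are names in accession order. Separate animals are not stated, and p-values then measure only how these libraries vary, which may be technical. Symbols, positions and exon lengths came from GENCODE M21 (GRCm38), which matched 32350 identifiers and left 755 unmatched.

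Genes were filtered with filterByExpr (minimum count 10, minimum total 15) in edgeR 4.0.16 (R 4.3.3), which left 16603. Libraries were scaled by TMM and tested by the robust quasi-likelihood F test with Benjamini-Hochberg adjustment over all genes tested. On simulated data the test recovered 66.7% of genes changed 1.5-fold and 91.9% of those changed 2-fold, with 6 false calls. Those data had the same spread for every gene and no effect of library quality or gene length, unlike the real ones. Smaller changes were not simulated. Standard errors are the log2 fold change over the square root of F, and intervals are at 95%. Ratios were compared by exact permutation. Alternatives used DESeq2 1.42.0 and limma 3.58.1, and every limma-voom value comes from a fit with quality weights per library. The 9 genes and the lists were chosen with earlier results of these data known. Named are the 9, every pathway gene called or otherwise up to 4 per role by p, and 3 similar genes for each of the 9 (mean of at least 1 CPM). A gene that this rule names is not reported here.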

Additional observations from a re-analysis of the deposited data

Results flagged for a closer look

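In 66 sets of 4 libraries (9 genes, 20 pathway genes and 4 ratios in each group), 2 had a library set apart by a gap that Dixon's test allows in about 1 of 20 by chance, so the number is no more than chance gives. Insr was at 179 CPM in Sham replicate 1 against 230.0 to 234 in the other Sham libraries. That library was also low in long transcripts as a whole, and without it the Insr log2 fold change was −0.051. Pik3r3 was at 17.8 CPM in MR replicate 4, against at most 16.2 in the other MR libraries.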

How the results depend on the processing

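Among the 9 genes 1 (Igf1) was called with library totals only, 2 (Igf1 and Pik3r1) with no filter, in DESeq2 and in limma-voom, and 0 to 2 with each library left out. Of the other pathway genes, 0 were called with library totals only (against 0.422% of all genes) and with the filter at 1 CPM (0.389%). The count was 6 with no filter (3.06%), 4 in DESeq2 (3.76%), 4 in limma-voom (2.75%) and 2 with the gene length trend removed (1.37%). With a library left out it was 0 to 3 (0.0178% to 5.28%). Over all genes the counts were 70 with library totals only, 52 with the filter at 1 CPM, 936 with no filter and 618 in DESeq2. They were 457 in limma-voom, 227 with the length trend removed and 3 to 887 with a library left out. With no filter some adjusted p fell below the unadjusted p of the main run, so calls of that run are not on a par with the others. Where Igf1 was called its log2 fold change was 0.47 (library totals only), 0.43 (no filter), 0.42 (DESeq2) and 0.41 (limma-voom), with 0.36 to 0.47 over the libraries left out. Pik3r1 was at −0.41 with no filter, in DESeq2 and in limma-voom, and over the libraries left out its range was −0.50 to −0.34. Values near 0 changed sign: Igf1r was at −0.0035 with RLE factors, −0.0051 in DESeq2, −0.026 in limma-voom, −0.063 with the length trend removed and −0.080 to 0.075 with a library left out. Insr was at −0.018 in limma-voom, −0.0072 with the length trend removed and −0.051 to 0.074 with a library left out, and Phlpp1 at 0.00057 with library totals only. The log2 ratio of Igf1r to Insr differed by −0.078 to 0.00081 with a library left out. The cause of these shifts was not tested. Irs1, Irs2, Pik3ca, Akt1 and Akt2 kept their direction and stayed above the threshold in adjusted p under all 16 alternatives run. No paired analysis was possible because the labels give the groups no shared replicate number. Depth limits Irs3 (6 to 20 counts per library) and Igf2 (2 to 24).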

Other observations

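Several genes of the pathway were at or near the level of single counts and entered no comparison. Irs4 had 2 counts in Sham replicate 4, 2 in MR replicate 4 and 0 in the other 6 libraries, where the limit set by 0 counts is 3 counts (0.0502 to 0.071 CPM over the 8 libraries, for counting error only). Igfbp2 had 2 counts in Sham replicate 1, 2 in MR replicate 2, 4 in MR replicate 4 and 0 elsewhere. Insrr, the receptor gene related to Insr, ranged over 0.0947 to 0.389 CPM (Sham) and 0.0202 to 0.221 CPM (MR). The protease gene Pappa2 stood at 0.0947 to 0.216 and 0.155 to 0.519 CPM. Igf2, the fetal growth factor, was tested but stood at 0.0474 to 0.348 CPM in Sham and 0.251 to 0.557 in MR, and 62.8% of its exon bases are shared with Gm49394, so its value is uncertain.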
